A study of Mus musculus with 5 samples.

Results

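The cytosolic ribosomal protein genes were examined in RNA of cells labelled as sorted polymorphonuclear myeloid-derived suppressor cells (PMN-MDSCs), neutrophil-lineage cells that restrain T cells in tumor-bearing hosts. Members were all gene symbols of the form Rpl or Rps followed by a number, with short a, x or l suffixes, together with Rplp0, Rplp1, Rplp2 and Rpsa, and without symbols marked as pseudogenes. The rule found 90 of the 55250 gene symbols in the deposited table, 54 of the large ribosomal subunit and 36 of the small subunit. Of these, 77 are canonical proteins of the ribosome (46 large, 31 small), and 13 are paralogs or further gene copies. The rule reads symbols only, and some of these 13 are annotated as pseudogenes in GENCODE M21.

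The study compared tumor with lung, and its title concerns galectin-1, STING activity in tumors and the recruitment of these cells in metastasis. There were 2 libraries from tumor (numbers 2 and 3) and 3 from lung (numbers 1, 2 and 3). All 5 came from wild-type mice, with RNA from at least 2000000 sorted cells each and a stated 20000000 paired reads. How the cells were sorted, which tumor was grown, and the strain and age of the mice are details not given in the sources used here. No label ties a library to its own animal, so the p-values rest on the spread of these 5 libraries, part of which may be technical.

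The ribosome joins amino acids into protein. Its small subunit holds the messenger RNA and reads the codons, and its large subunit forms the peptide bond and releases the chain through an exit tunnel. Vertebrate messages for ribosomal proteins typically begin with a C followed by a run of pyrimidines, the 5′ terminal oligopyrimidine (TOP) motif, through which mTOR signalling and Larp1 set how strongly they are translated. Ribosomal protein messages are generally abundant in growing and dividing cells and less abundant in mature neutrophils.

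The markers of the labelled cell type were lower in tumor. The 12 neutrophil marker genes summed to 1149 and 3907 TPM in tumor libraries 2 and 3, against 51619, 62971 and 37122 TPM in lung libraries 1, 2 and 3, and all 12 were called lower. TPM is a length-corrected transcript abundance that sums to 1000000 in each library. Calls follow limits given below, under which 31.6% of all genes tested were called higher and 27% lower. The 20 pan-leukocyte genes summed to 808 and 2190 TPM in tumor and to 16064, 16762 and 15926 TPM in lung, and all 20 were called lower. The 12 epithelial genes, mostly keratins and claudins, summed to 6768 and 6807 TPM in tumor and to 124, 59.5 and 59.4 TPM in lung, with 11 of 12 called higher. The 6 proliferation genes were all called higher, at 425 and 330 TPM in tumor against 96.2, 93.5 and 97.8 TPM in lung, and the 8 lymphocyte genes summed to 4.99 and 9.20 TPM in tumor and 280, 124 and 175 TPM in lung. No marker of these lists was at 0 in any library. The markers thus differed between the same libraries that every comparison below uses, and their part in the results was not tested. In bulk samples, fewer cells of a type and less RNA per cell cannot be told apart.

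The letters around the transcription start are shown for a few members, because the TOP motif lies there. Each line gives 15 bases before and 15 after the RefSeq start on GRCm38.p6, 5′ to 3′ on the gene's strand. Capitals mark a C followed by at least 4 pyrimidines. Rps2, Rps26 and Rpl15 were among the largest rises, Rpl35 has the longest run of those printed, Rps9 and Rps27 were the canonical members with differences below 0, and Rpl22, the parent of a paralog described later, has 2 starts in RefSeq.
Rps2, chr17:24720048-24720077, plus strand: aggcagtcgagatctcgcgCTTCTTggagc
Rps26, chr10:128626492-128626521, minus strand: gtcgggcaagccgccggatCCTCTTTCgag
Rpl15, chr14:18270972-18271001, minus strand: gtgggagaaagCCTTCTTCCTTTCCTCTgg
Rpl35, chr2:39005117-39005146, minus strand: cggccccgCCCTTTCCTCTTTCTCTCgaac
Rps9, chr7:3704026-3704055, plus strand: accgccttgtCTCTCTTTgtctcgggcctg
Rps27, chr3:90213634-90213663, minus strand: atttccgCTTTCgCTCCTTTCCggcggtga
Rpl22, start 1, chr4:152325711-152325740, plus strand: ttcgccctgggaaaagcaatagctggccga
Rpl22, start 2, chr4:152324421-152324450, plus strand: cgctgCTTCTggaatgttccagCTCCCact
Start 1 of Rpl22 holds no such run, and the other windows printed do, those of Rps9 and Rps27 included. The windows were picked as examples, and the share over all members is given by the count that follows.

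A promoter sequence was found in RefSeq for 57 of the 77 canonical members and for 27025 genes in all. Where several starts were listed for a gene, a match at any of them was counted. A C followed by at least 6 further pyrimidines on the gene's own strand, from 20 bases before to 40 after the start, was found in 42 of the 57 members (73.7%) and in 29.0% of all genes. Searching 300 bases on both strands, CCGGAAG, a core bound by ETS-family factors, was found in 24 members (42.1%) and 9.93% of all genes. The GC box GGGCGG was found in 35 members (61.4%) and in 38.2% of all genes. The YY1 word AAGATGGC was found in 5 members (8.77%) and 3.19% of all genes, and the E-box CACGTG in 6 members (10.5%) and 8.09% of all genes. A match in letters is not a binding site, and the words can overlap one another. The median difference between tumor and lung on the log2(TPM + 1) scale was 1.30 for the 42 members with a tract and 1.40 for the 15 without one. It was 1.52 for the 24 members with CCGGAAG and 1.30 for the 33 without it.

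Ribosomal protein messages took a larger share of the tumor libraries than of the lung libraries. The 77 canonical members held 7.93% and 6.04% of all TPM in tumor libraries 2 and 3, against 3.57%, 2.61% and 2.40% in lung libraries 1, 2 and 3. Both tumor values lay above all lung values. The mean share was 6.98% ± 1.34 in tumor and 2.86% ± 0.622 in lung (SD, n = 2 and 3), a ratio of 2.44. The log2 of the summed TPM of all 90 members differed by 1.30, and an exact two-sided permutation test over the libraries gave p = 0.1, the smallest that its 10 splits allow. The messages of both subunits were larger shares in tumor. Large subunit messages held 4.80% and 3.66% in tumor and 2.00%, 1.45% and 1.36% in lung, and small subunit messages held 3.13% and 2.37% in tumor and 1.58%, 1.17% and 1.04% in lung.

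**Figure D1:**
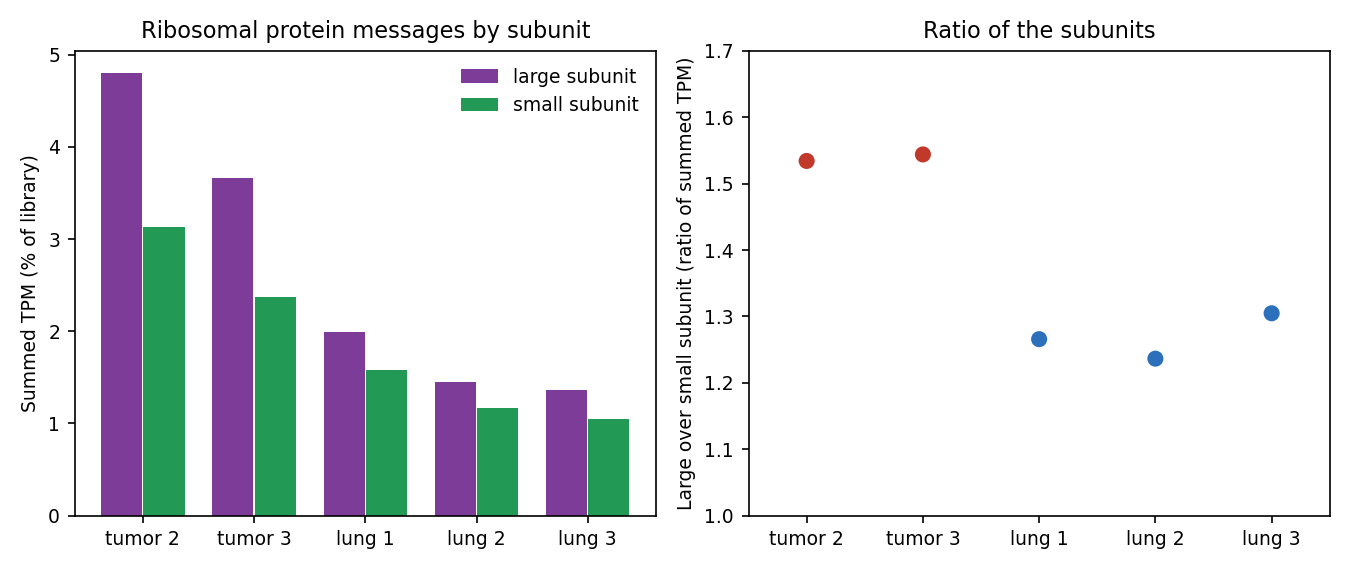
Left, summed TPM of the 46 large and 31 small subunit genes as a percentage of each library, tumor libraries first; right, the ratio of the 2 sums in each library, tumor in red and lung in blue, on an axis that starts at 1. Large subunit sums were 4.80% and 3.66% in tumor and at most 2.00% in lung, and the ratio was 1.53 and 1.54 in tumor and 1.24 to 1.30 in lung.

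Nearly all canonical members rose one by one. Of 77 tested, 69 were called higher in tumor, 0 lower, and 8 were not called. Calls come from limma fitted over the 16387 genes that averaged 1 TPM or more, at a Benjamini-Hochberg adjusted p under 0.05 and at least 1.5-fold. Over all genes tested, 31.6% were called higher and 27% lower, 58.6% in either direction. The adjusted p of the 69 ran between 0.00164 and 0.0385. Both tumor values lay above all 3 lung values in 74 of the 77, and this was so for 39.9% of all genes tested. The median difference was 1.40 on the log2(TPM + 1) scale, against 0.018 for all genes tested, and the median ratio of mean TPM was 2.66. Ratios ran between 0.75 and 5.60, with 52 members between 2 and 4 and 6 members at 4 or more. Without tumor library 2 the count called higher was 26, of 3454 genes in the whole table, and the median difference was 1.21. The authors' deposited table, in which 0.638% of rows have an adjusted p under 0.05, gives no member of the 90 such a value. The smallest adjusted p of a member there is 0.151, and 6 members have an unadjusted p under 0.05, where 23% of all rows do.

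The libraries of a group differed mostly by a common factor. Tumor library 2 was above tumor library 3 in 76 of 77 members, Rps27 being the exception. Lung library 1 was the highest lung library in 74 members, and lung library 3 the lowest in 58. The order of the members was similar in both tissues, with a Spearman rho across the 77 genes of 0.90 between the mean levels in tumor and lung, 0.987 for the pair of tumor libraries and 0.979 to 0.985 for pairs of lung libraries. Genes are not independent replicates, and these values describe the order only. Mean levels per gene in tumor had a median of 762 TPM and ran between 15.3 and 5802 TPM, and in lung they had a median of 282 TPM and ran between 7.57 and 2390 TPM. The 10 highest members held 34.0% and 34.6% of the canonical sum in tumor, against 36.3%, 37.8% and 36.3% in lung, and 6 genes were among the 10 highest in both tissues.

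**Figure D2:**
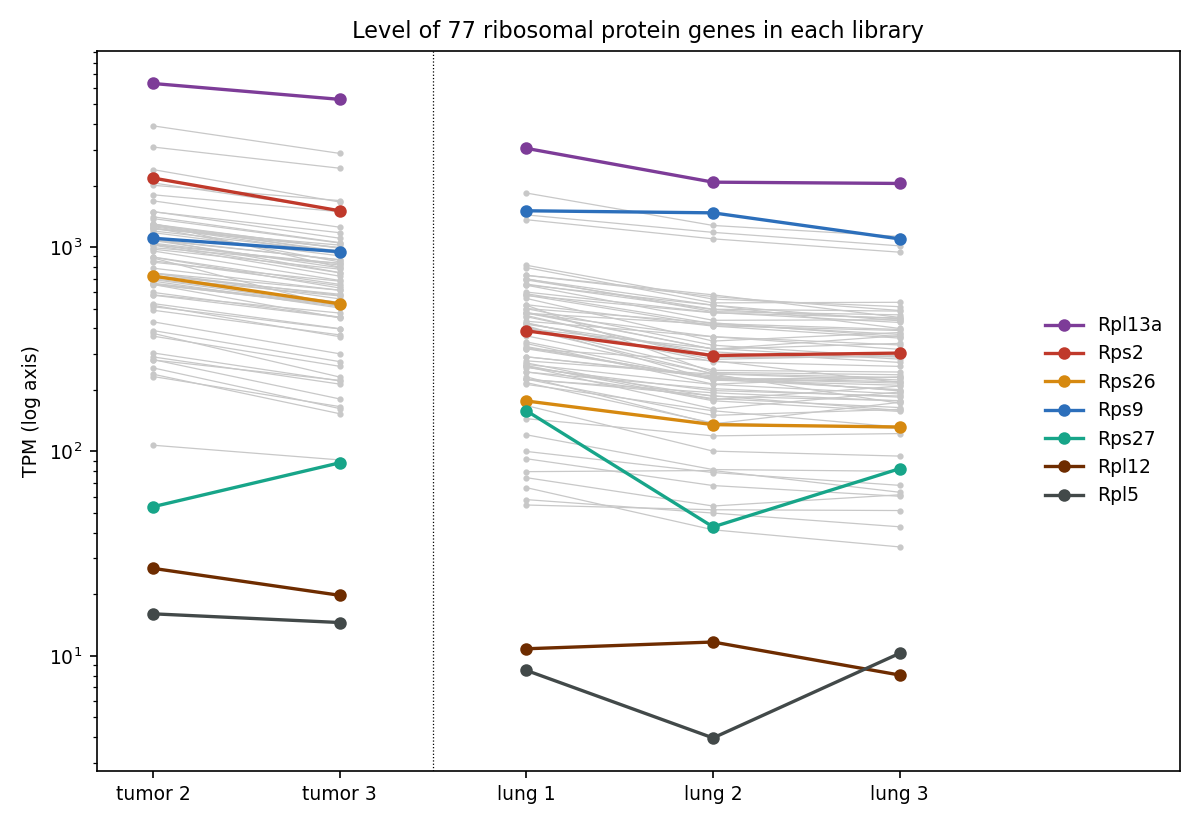
TPM (log axis) of the 77 canonical genes in each library, tumor libraries left and lung libraries right of the dotted line, with lines joining the values of a gene within a tissue and 7 genes in colour. Rpl13a was highest throughout, Rps2 lay at 1505 to 2178 in tumor and 295 to 389 in lung, Rps9 lay at 950 to 1105 in tumor and 1096 to 1506 in lung, and Rpl5 and Rpl12 lay below the rest.

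The most abundant member was Rpl13a (chromosome 7), a large subunit protein also known, in human monocytes, as part of the GAIT complex that silences inflammatory messages. It had 6320 and 5284 TPM in tumor libraries 2 and 3, against 3042, 2079 and 2049 TPM in lung libraries 1, 2 and 3, and rose by 1.30 ± 0.25 (log2, SE; adjusted p from limma 0.0091). Rps15a had 3088 and 2432 TPM in tumor and 1839, 1276 and 1128 TPM in lung. Both tumor values exceeded all lung values for both genes. Rplp1, a stalk protein, had 2395 and 1662 TPM in tumor and 815, 557 and 511 TPM in lung. Rps14, a platform protein whose loss is known from the anemia of the human 5q- syndrome, had 2007 and 1689 TPM in tumor and 1361, 1097 and 944 TPM in lung. Rps14 had the largest adjusted p of the called members, 0.0385, and Rpl34 the smallest of those not called, 0.0534. The calls of Rpl13a, Rps15a and Rps14 were lost without tumor library 2 or 3 and without lung library 2 or 3, and that of Rplp1 without tumor library 2. Those of Rpl13a, Rps15a and Rps14 were also lost when no filter on low values was used.

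The largest rise was that of Rps2 (chromosome 17), a small subunit protein at the entry of the messenger RNA channel. It had 2178 and 1505 TPM in tumor libraries 2 and 3, against 389, 295 and 303 TPM in lung libraries 1, 2 and 3. Each tumor value was above 3 times the highest lung value, and the ratio of means was 5.60. The difference was 2.47 ± 0.24 (log2, SE; adjusted p from limma 0.0016). Rps26, which lines the exit of the channel, had 721 and 528 TPM in tumor and 177, 135 and 132 TPM in lung, a ratio of 4.22. Rps20, a protein of the head, had 239 and 153 TPM in tumor and 66.5, 41.3 and 34.1 TPM in lung, a ratio of 4.14, and its call was lost without tumor library 2. Rpl15, a large subunit protein, had 303 and 221 TPM in tumor and 74.4, 54.1 and 61.3 TPM in lung, a ratio of 4.15. Rpl21 had 367 and 261 TPM in tumor and 92.1, 68.1 and 60.3 TPM in lung. Its difference of 2.08 was 0.96 once the values of its 54 pseudogene copies were added to it, and it was called higher both ways. The copies did not move alike. Gm14039, with 43.7% of its 31-base words in Rpl21, had 0 and 55.7 TPM in tumor and 180, 194 and 266 TPM in lung. Gm10163, with 86.3%, had 543 and 417 TPM in tumor and 141, 94.7 and 95.8 TPM in lung. Tumor and lung values did not overlap in Rps2, Rps26, Rps20, Rpl15 or Rpl21, which were picked for the size of their rise. Among all genes tested, both tumor values lay above all lung values in 39.9%.

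Rps9 was the main exception. This small subunit protein (chromosome 7) sits beside Rps2 and Rps3 around the entry channel, and it had 1105 and 950 TPM in tumor libraries 2 and 3, against 1506, 1471 and 1096 TPM in lung libraries 1, 2 and 3. The groups overlapped, with tumor library 2 just above lung library 3, and the difference of -0.39 ± 0.21 had an adjusted p of 0.166 by limma. Rps3 had 1027 and 830 TPM in tumor and 651, 438 and 441 TPM in lung, and was called higher at 0.88 ± 0.25 (adjusted p 0.0295), a call lost without the filter on low values (adjusted p 0.0663). Rps27, a zinc-binding protein of the small subunit, had 53.6 and 88.0 TPM in tumor and 158, 42.7 and 82.4 TPM in lung. Lung library 1 was the highest and lung library 2 the lowest of all 5, so the groups overlapped, and the difference was -0.26 ± 0.59 (adjusted p 0.719), with its sign turned without lung library 1 or tumor library 2. Rps29 had 656 and 451 TPM in tumor and 520, 244 and 237 TPM in lung, with tumor library 3 below lung library 1 (adjusted p 0.156). The other 5 members not called were Rpl5, Rpl9, Rpl34, Rpl37 and Rpl37a. Their tumor values were above all lung values, with differences of 0.60 to 1.01 and adjusted p of 0.0534 to 0.0972. Fau, whose message encodes the small subunit protein S30 fused to a ubiquitin-like domain and whose symbol lies outside the rule, had 796 and 619 TPM in tumor and 856, 837 and 586 TPM in lung (difference -0.09, adjusted p 0.755). Rack1, a scaffold on the small subunit that also lies outside the rule, was called higher, with 1135 and 858 TPM in tumor and 352, 230 and 270 TPM in lung.

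**Figure D3:**
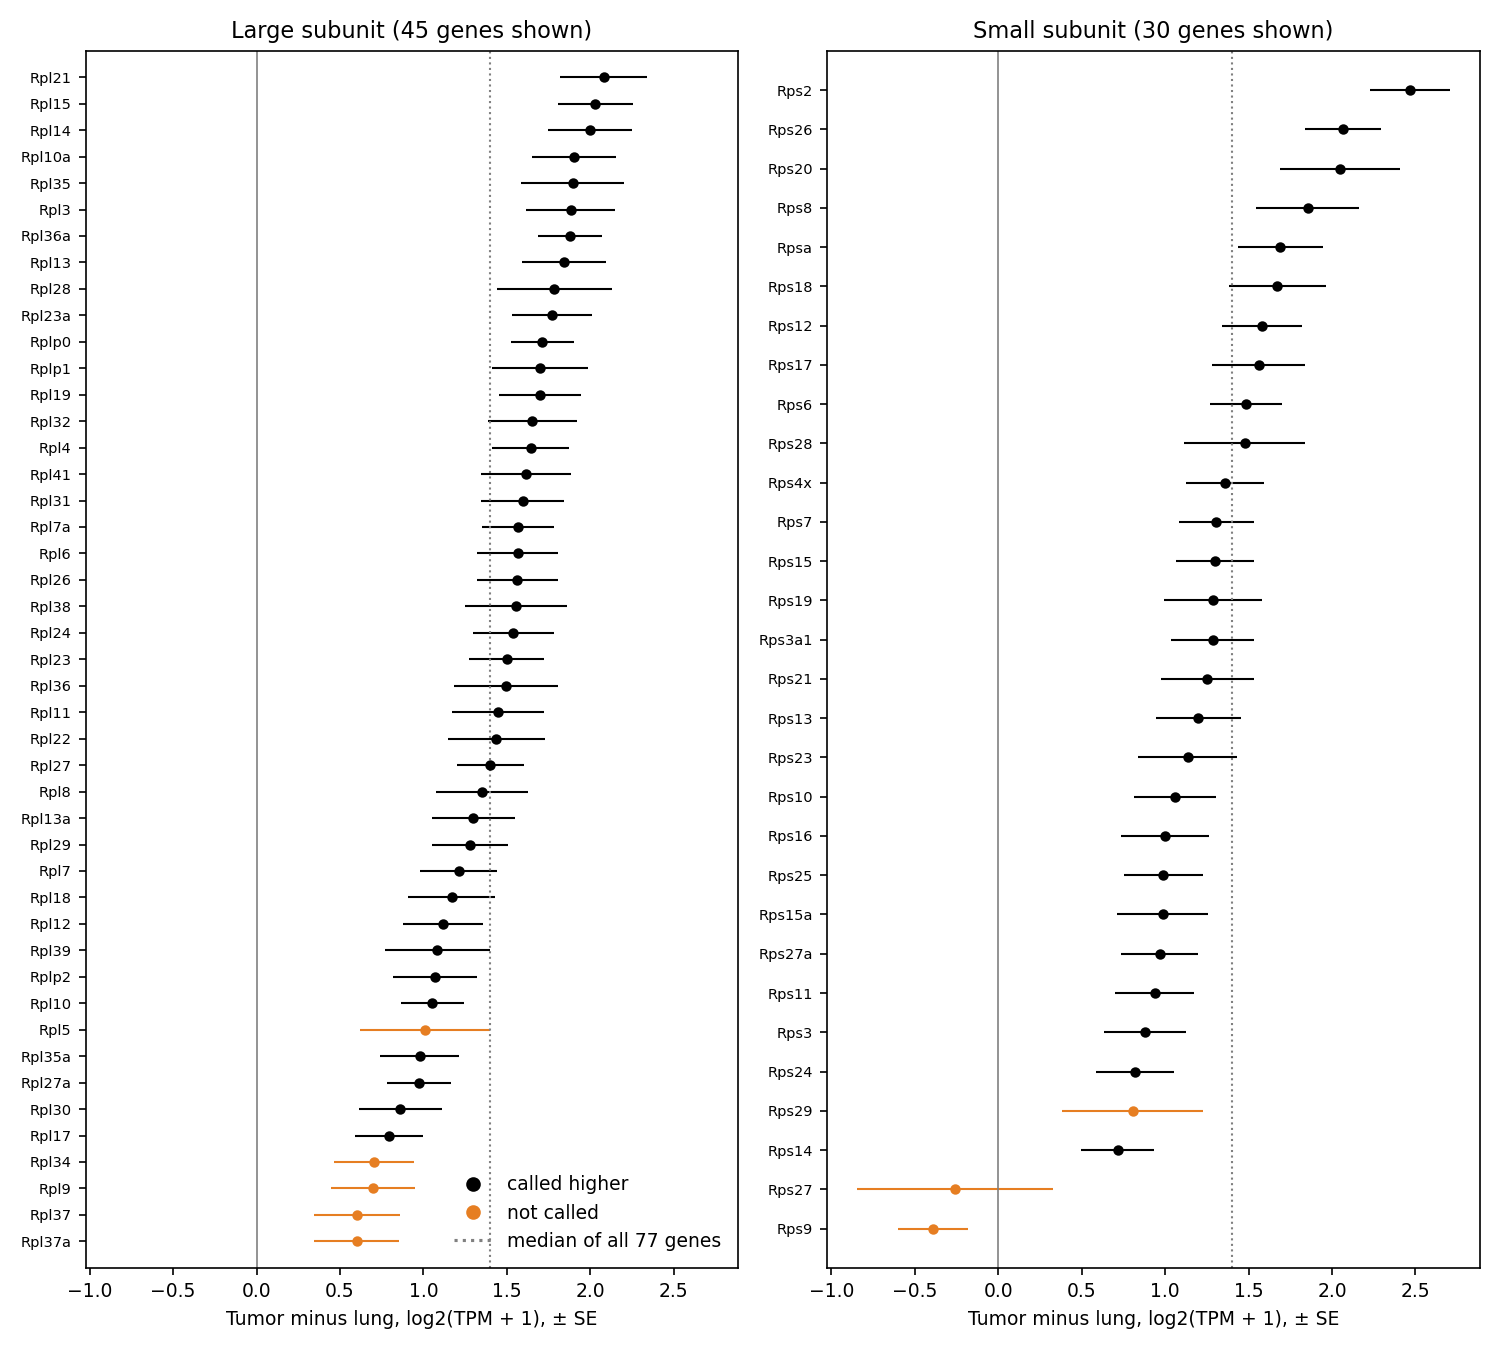
Difference between tumor and lung on the log2(TPM + 1) scale with its SE for 45 large and 30 small subunit genes, black where called higher and orange where not called; the solid line is 0 and the dotted line the median of all 77. All large subunit genes drawn lie at 0.60 or above, and Rps9 and Rps27 are the 2 genes below 0.

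The ratio of the subunits was higher in the tumor libraries. With these 5 libraries the exact test cannot go below 0.1, whatever the margin. In the large subunit 41 of 46 members were called higher (31.6% over all genes tested), with a median difference of 1.50 and a median ratio of 2.82. In the small subunit 28 of 31 were called higher, with a median difference of 1.28 and a median ratio of 2.42. Without tumor library 2 these counts were 20 and 6, and without lung libraries 2 and 3 the small subunit had 14 and 15. The summed TPM of the large subunit was 1.53 and 1.54 times that of the small subunit in tumor, against 1.27, 1.24 and 1.30 times in lung. Both tumor ratios were above all lung ratios, and they differed from each other by less than the lung ratios did. The difference was 0.28 on the log2 scale (p = 0.1 by the exact permutation test, its minimum). It was 0.0715, with an exact p of 0.2, when the 3 most abundant members of each subunit were left out, Rps9 among them.

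Within the large subunit, proteins were grouped by place and function. Over all genes tested, 31.6% were called higher. The 4 proteins of the P stalk and its base, which recruit elongation factors, were all called higher. Rplp0 had 1803 and 1490 TPM in tumor and 580, 477 and 450 TPM in lung, Rplp2 had 1295 and 941 TPM in tumor and 659, 494 and 446 TPM in lung, and Rpl12 is described with its copies. The 4 proteins around the peptidyl transferase centre were all called higher. Rpl3 had 726 and 588 TPM in tumor and 232, 136 and 174 TPM in lung (difference 1.88), Rpl4 differed by 1.64, Rpl8 by 1.35 and Rpl10 by 1.05. All 9 proteins of the exit tunnel and its rim were called higher, with a median difference of 1.59. Of the 5S particle, which binds Mdm2 and restrains it when ribosome assembly fails, Rpl11 was called higher, at 857 and 647 TPM in tumor and 368, 240 and 230 TPM in lung, and Rpl5 was not. Without tumor library 2 the calls of Rplp1, Rplp2, Rpl12, Rpl8 and Rpl11 were lost, that of Rplp2 also without lung library 2 or 3, and that of Rpl8 also without lung library 3.

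In the small subunit, 13 of 14 members of the head were called higher (median 1.29), and 15 of 17 members of the body and platform (median 1.25). The share called higher over all genes tested was 31.6%. Rps6, the substrate of S6 kinase, had 681 and 504 TPM in tumor and 245, 203 and 184 TPM in lung. Rpsa, also known as the laminin receptor precursor, had 1379 and 1047 TPM in tumor and 480, 317 and 338 TPM in lung. Rps19, a head protein mutated in human Diamond-Blackfan anemia, had 1492 and 1105 TPM in tumor and 697, 520 and 400 TPM in lung. Tumor and lung values did not overlap in these 3 genes. In the small subunit both tumor values lay above all lung values in 28 of 31 members, and this was so for 39.9% of all genes tested.

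Changes among the members themselves were read after each library had been scaled to the same sum of canonical members, with the whole table refitted. On this scale 10.6% of all genes tested were called higher and 42.8% lower, 53.4% in either direction, and the median of all genes was -1.05. Of the 77 canonical members, 6 were called higher, namely Rps2 (1.18), Rpl21 (0.80), Rps26 (0.78), Rps20 (0.77), Rpl15 (0.75) and Rpl14 (0.71). Rps9 (-1.68, adjusted p from limma 0.0031), Rpl37 (-0.69) and Rpl37a (-0.69) were called lower. The remaining 68 were not called. Among them Rps14 (-0.58) had an adjusted p of 0.0473 with a difference under 1.5-fold, and the next was Rpl34 at 0.0512. Without tumor library 2 none of the 77 was called on this scale, without tumor library 3 there were 2 higher and 1 lower, and without lung library 2 there were 1 higher and 2 lower. Fau was called lower on the same scale (-1.39), and Rack1 was not called on it. Pseudogene copies, described below, limit this order, which was not refitted with copies added. Against a median of 1.36 for members with copies added, Rpl21 differed by 0.96, with Gm14039, lower in tumor, among its copies. Rpl15 differed by 1.89 and Rps20 by 1.99. Rpl37 (0.36) and Rpl37a (0.51) stayed below that median. In all of these genes the copies held more TPM than the member in every library. In Rps2, Rps26, Rpl14 and Rps9 they held less.

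Many ribosomal protein genes have processed pseudogenes nearly identical to their messages, and the division of reads between them is a model's estimate. In GENCODE M21 transcripts, a median of 46.1% of a canonical member's 31-base words occurred in another gene, and up to 99.0% for Rpl35, and 75 of the 77 had at least 1 pseudogene copy in the table, 581 in all. A copy was counted where at least 25% of its words lay in the member. For 18 members the copies together held more TPM than the member. Copies held 23.2% and 22.9% of the joint sum of members and copies in tumor, and 25.6%, 22.9% and 23.3% in lung, ranges that overlap. The 15 members with under 25% of their words shared had a median difference of 1.08, with 12 called higher, and the 18 with at least 75% shared had a median of 1.56, with 17 called higher. In the same fit 31.6% of all genes tested were called higher.

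Rpl12, at the base of the stalk, had only 26.8 and 19.8 TPM in tumor and 10.8, 11.7 and 8.05 TPM in lung. Its copy Gm10275, all of whose words lie in Rpl12, had 1335 and 912 TPM in tumor and 274, 174 and 185 TPM in lung. Summed with its 11 copies, Rpl12 differed by 2.23 ± 0.31 between tumor and lung, against 1.12 ± 0.24 alone, and was called higher both ways. Rpl5 had 16.0 and 14.5 TPM in tumor and 8.48, 3.96 and 10.3 TPM in lung, and its 6 copies held 97.8% and 97.4% of the joint sum in tumor and 96.7%, 97.9% and 95.1% in lung. The joint sum of Rpl5 was 721 and 550 TPM in tumor and 255, 186 and 209 TPM in lung, was called higher at 1.55 ± 0.21 (adjusted p from limma 0.0035), and did not overlap between the groups. Rps28, a small head protein, had 892 and 631 TPM in tumor and 412, 223 and 211 TPM in lung, while its copy Gm10443 had 4291 and 2967 TPM in tumor and 2296, 1075 and 1079 TPM in lung. Rps9 has 1 copy in the table, which left its difference at -0.39. With copies added, 70 of the 77 were called higher, of 5157 genes in the whole table, with a median of 1.36. This count was chosen after the data had been seen, as were the copies named here.

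**Figure D4:**
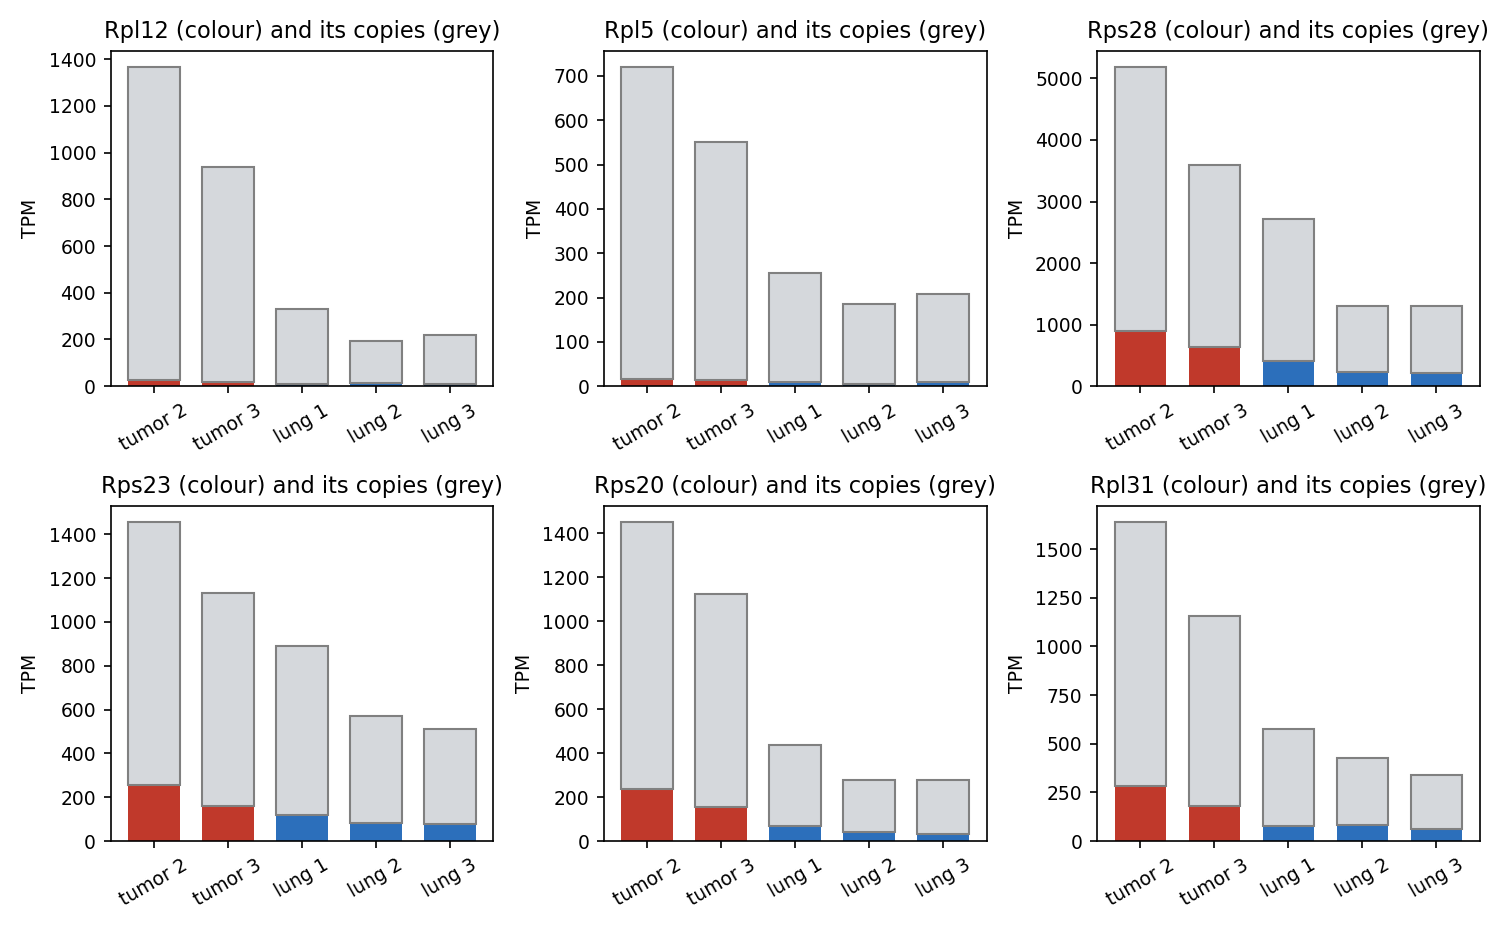
Stacked TPM of 6 members (colour, tumor in red and lung in blue) and the sum of their pseudogene copies (grey) in each library, tumor libraries left. The grey part holds most of each bar, and both tumor bars stand above the 3 lung bars in every panel.

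The paralogs were set against their parents. Of the 13 paralogs and copies, 5 passed the filter of a mean of 1 TPM, 4 were called higher and 1 lower, and the other 8 lay near 0. Over all genes tested, 31.6% were called higher and 27% lower. Rpl22l1 (chromosome 3), a paralog of Rpl22 that can replace it in the ribosome, had 177 and 117 TPM in tumor, against 37.9, 23.3 and 22.4 TPM in lung, a ratio of 5.27 and a difference of 2.37 ± 0.32 (adjusted p from limma 0.0032). Rpl22 had 491 and 372 TPM in tumor and 217, 138 and 130 TPM in lung. Rpl22l1 stood at 36.0% and 31.5% of Rpl22 in tumor and at 17.5%, 16.9% and 17.3% in lung, without overlap, and the lung values spread little. The log2 ratio differed by 0.93, with an exact permutation p of 0.1 and 0.2 after adjustment over the 8 pairs compared. No 31-base word was shared between the pair, but 67.5% of the words of Rpl22l1 occurred in other genes of GENCODE M21, so its level carries the uncertainty of divided reads.

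Rps27l, a paralog of Rps27 induced by p53, had 133 and 99.6 TPM in tumor and 55.2, 34.6 and 32.8 TPM in lung, and rose by 1.51 ± 0.29 (adjusted p from limma 0.0092). It stood at 248% and 113% of Rps27 in tumor and at 34.9%, 81.1% and 39.8% in lung. The log2 ratio differed by 1.77 (exact p 0.2, adjusted 0.267), and the wide spread of Rps27 enters it. The coding sequences of the pair, from GENCODE M21, are shown because they tell how far the 2 messages can be kept apart by sequence. They have 255 bases each, 194 identical (76.1%), and capitals mark the 61 that differ. The longest identical run is 11 bases. Still, 50.1% of the 31-base words of Rps27 and 22.9% of those of Rps27l occurred in other genes of GENCODE M21. Both levels thus carry the uncertainty of divided reads.
Rps27l, chromosome 9: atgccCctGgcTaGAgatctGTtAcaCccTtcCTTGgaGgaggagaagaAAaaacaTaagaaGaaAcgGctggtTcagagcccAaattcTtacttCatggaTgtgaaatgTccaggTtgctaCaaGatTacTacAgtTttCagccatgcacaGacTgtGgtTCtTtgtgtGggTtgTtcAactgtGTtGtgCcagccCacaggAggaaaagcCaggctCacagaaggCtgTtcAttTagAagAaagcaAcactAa
Rps27, chromosome 3: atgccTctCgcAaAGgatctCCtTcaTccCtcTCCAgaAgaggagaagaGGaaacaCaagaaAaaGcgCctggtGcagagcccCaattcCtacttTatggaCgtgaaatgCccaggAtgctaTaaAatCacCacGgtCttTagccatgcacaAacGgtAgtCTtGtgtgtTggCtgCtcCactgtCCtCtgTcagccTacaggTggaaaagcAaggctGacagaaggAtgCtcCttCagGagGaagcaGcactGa

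Rps4l, a relative of Rps4x annotated as a pseudogene in GENCODE M21, was the only member called lower. It had 0.821 and 0.605 TPM in tumor and 7.36, 4.59 and 5.63 TPM in lung, and differed by -1.98 ± 0.26 (adjusted p from limma 0.0030), which turned to 1.61 when libraries were centred on the pan-leukocyte genes, a scaling that lifts all genes together (median of all genes 3.61). Rps4x had 584 and 476 TPM in tumor and 260, 186 and 177 TPM in lung, opposite in direction. Rpl3l, a paralog of Rpl3 known from skeletal muscle and heart, had 0.0404 and 0.208 TPM in tumor and 1.15, 1.05 and 1.20 TPM in lung, without overlap. It failed the filter on low values, and without that filter it was called lower (-0.93, adjusted p 0.021). The log2 ratio of Rpl3l to Rpl3 differed by -2.81 and that of Rps4l to Rps4x by -3.34, both with an exact p of 0.1 and 0.2 after adjustment, and part of each difference lies in the parent. Rpl36al stood at 124% and 129% of Rpl36a in tumor and at 189%, 125% and 140% in lung, and Rpl7l1, a paralog of Rpl7, at 9.99% and 10.03% in tumor and at 9.76%, 11.2% and 16.7% in lung. These ratios overlapped between the groups (exact p 0.4 and 0.6), although Rpl36al (1.65) and Rpl7l1 (0.90) were both called higher. The calls of Rps27l, Rpl36al and Rpl7l1 were lost without tumor library 2, and that of Rpl7l1 also without lung library 1, while those of Rpl22l1 and Rps4l held with any 1 library left out. Rpl10l and Rpl39l, known from testis, were listed at 0 in 3 libraries each and were at most 0.408 TPM, so their ratios to Rpl10 and Rpl39 (-1.13 and -1.33) are set by the parents. Rpl6l, Rpl32l, Rps3a2, Rps3a3 and Rps12l1, all annotated as processed pseudogenes in GENCODE M21, were at most 1.44 TPM in any library.

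**Figure D5:**
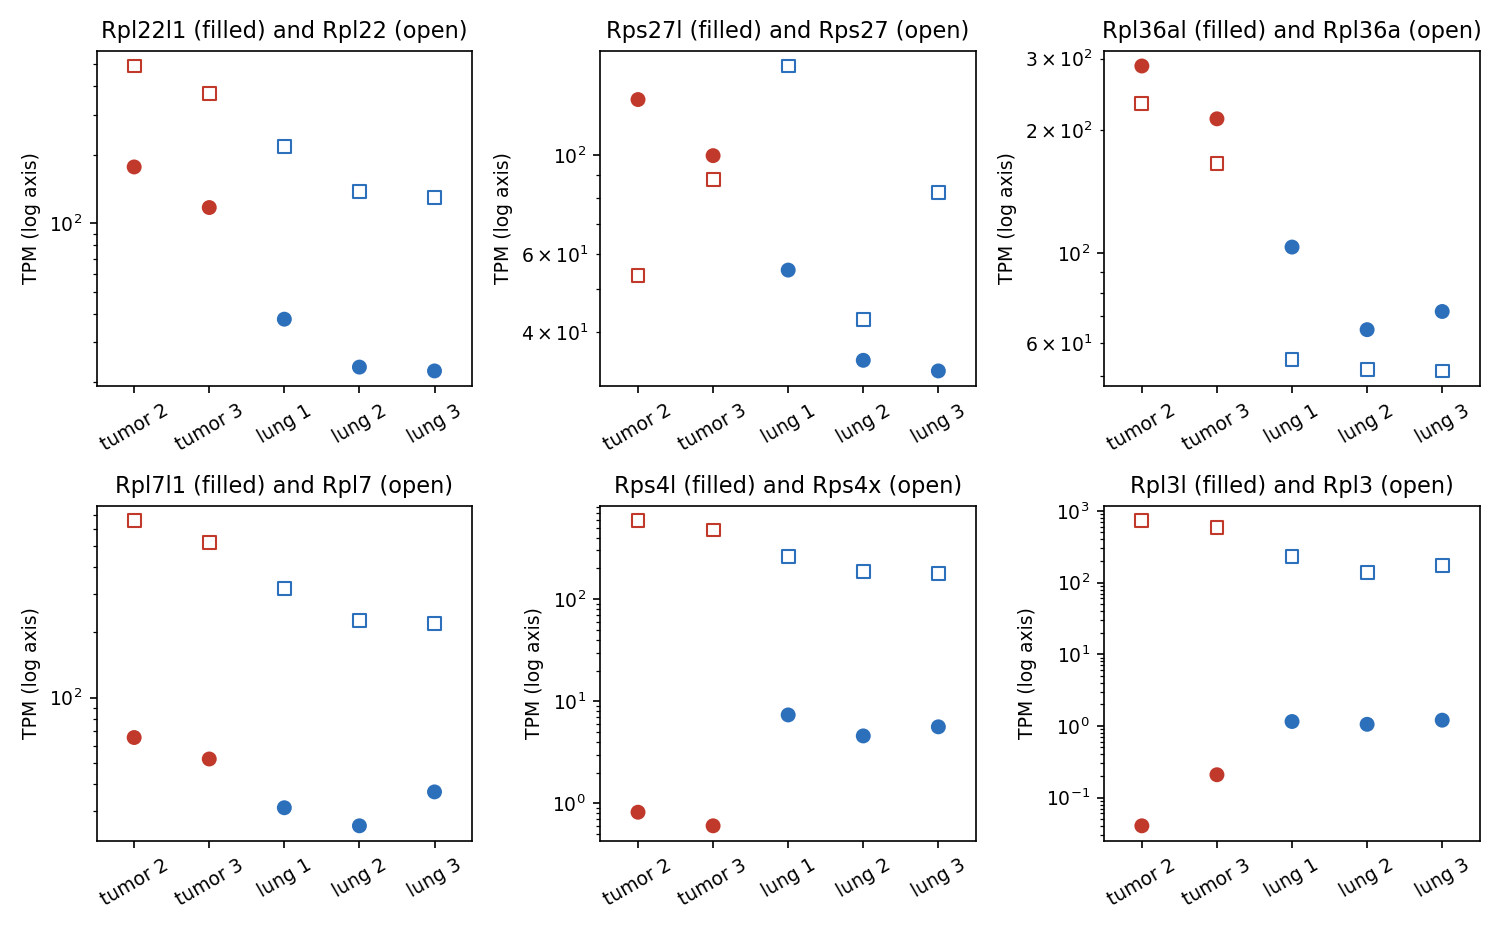
TPM (log axes with different ranges) of 6 paralogs (filled) and their parents (open) in each library, tumor in red and left, lung in blue. Rpl22l1 was 36.0% and 31.5% of Rpl22 in tumor and 16.9% to 17.5% in lung, Rps27l lay above Rps27 in both tumor libraries and below it in all lung libraries, and Rps4l and Rpl3l were lower in tumor while their parents were higher.

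Other genes of the translation apparatus were read from the same fit, in which 31.6% of all genes tested were called higher and 27% lower. All 7 elongation factor genes were called higher, with a median difference of 1.80, and Eef1g had 493 and 318 TPM in tumor and 94.2, 65.6 and 74.1 TPM in lung. Of 13 eIF3 subunits, the scaffold that brings the small subunit to messages, 12 were called higher (median 1.44), with Eif3b at 181 and 182 TPM in tumor and 34.2, 24.1 and 39.0 TPM in lung. Of 16 TOP messages encoding proteins outside the ribosome, 13 were called higher (median 1.43, a list that shares genes with both before it), with Hnrnpa1 at 324 and 291 TPM in tumor and 69.5, 47.5 and 72.7 TPM in lung. All 6 noncoding TOP transcripts that host small nucleolar RNAs were called higher (median 1.36), with Snhg6 at 77.8 and 73.1 TPM in tumor and 8.87, 3.77 and 6.47 TPM in lung.

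Genes for making ribosomes were counted by list, beside the shares of 31.6% called higher and 27% called lower over all genes tested. Of 56 ribosome biogenesis genes, 52 were called higher and 1 lower (median 1.53). Npm1, a nucleolar chaperone that is also counted among the TOP messages, had 729 and 631 TPM in tumor and 84.8, 67.9 and 84.3 TPM in lung. Nop58, a core protein of methylating small nucleolar particles, had 94.9 and 87.8 TPM in tumor and 17.1, 13.3 and 13.7 TPM in lung. Of 7 chaperones that each escort a single ribosomal protein, 5 were called higher (median 1.21), with Grwd1, which carries Rpl3, at 16.9 and 11.9 TPM in tumor and 2.50, 1.19 and 1.44 TPM in lung. Of 12 genes of RNA polymerase I and its factors, 6 were called higher and 1 lower (median 0.58). Mitochondrial ribosomal proteins, which form a separate ribosome, were called higher in 68 of 79 tested and lower in 1 (median 1.49).

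The regulators of ribosomal protein synthesis were mixed, with 3 of 14 tested called higher and 2 lower (median 0.45), where 31.6% of all genes tested were called higher and 27% lower. Larp1, which binds the TOP motif, had 47.9 and 42.1 TPM in tumor and 18.1, 13.8 and 21.8 TPM in lung. Rptor, the substrate-binding subunit of mTOR complex 1, had 22.6 and 17.2 TPM in tumor and 5.86, 4.08 and 5.97 TPM in lung. Eif4ebp2, a translation repressor inactivated by mTOR, fell to 17.6 and 21.04 TPM in tumor, against 74.6, 73.8 and 80.9 TPM in lung. Max, the partner of Myc, fell to 37.4 and 93.3 TPM in tumor, against 239, 335 and 371 TPM in lung. Tumor and lung values did not overlap in these 4 genes, which were picked by the smallest p among those called. Among all genes tested, both tumor values lay above all lung values in 39.9% and below them in 35.7%. Centred on the pan-leukocyte genes, which lifts all genes together, Eif4ebp2 and Max stood at 1.66 and 1.23, below the median of all genes of 3.61. Of 38 tested pseudogenes of ribosomal proteins that carry -ps in their symbols, 14 were called higher and 6 lower (median 0.17), a share of higher calls near that over all genes.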

How the data were processed

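The authors deposited TPM, estimated with Salmon 0.9.1 on GENCODE mouse M24 transcripts, per the series' design text. The authors' deposited p-values, raw and adjusted, were only quoted. TPM is a share that keeps no depth, so no counting error could be given. Of 55276 rows, 26 with dates in place of symbols (0.0650% to 0.0826% of TPM) were left out. Groups come from the labels, and the members, the lists of genes and the tests were chosen with earlier results of these data known.

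Differences are tumor minus lung on log2(TPM + 1), tested two-sided with limma 3.58.1 (R 4.3.3, intensity trend) on genes averaging 1 TPM or more, adjusted by Benjamini-Hochberg over 16387 genes, and called under 0.05 at 1.5-fold or more. Ratios are of mean TPM. Log2 sums, and log2 paralog ratios with 1 TPM added to each gene, were tested by exact permutation of libraries. No list was tested as a set. The fit was checked on simulated data with independent values and few changed genes. That setting is unlike these data, so the check gives no error rate for the calls made here. Genes named were the pairs of paralogs, the 6 highest, the 6 largest changes each way, up to 4 changes each way relative to the canonical sum, stalk, 5S and peptidyl transferase proteins, Fau, Rack1, and up to 4 per list. Some genes that this rule takes are not reported here. Others, among them Rpl9, Rpl14, Rpl34, Rps3, Rps19, Rps28, Rps29 and single copies, were chosen after their values were seen. Chromosomes come from GENCODE M21 (GRCm38), where all 90 members were found, with 31-base words counted in its transcripts. Promoters come from RefSeq (GRCm38.p6). Alternatives were other pseudocounts, filters, scalings, fits and fold limits, a replicate block, and each library left out.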

Additional observations from a re-analysis of the deposited data

How the results depend on the processing

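Leaving out 1 library at a time gave 26 to 71 canonical members called higher (20 to 42 of the large and 6 to 29 of the small subunit), 3454 to 4669 genes called higher and 2831 to 4179 lower, and a median difference of 1.21 to 1.61. The lowest counts came without tumor library 2, where the lone tumor library is assumed to vary as the lung libraries do. Without lung libraries 2 and 3, 14 and 15 small subunit members were called. Of the 41 named members, 18 lost their call without tumor library 2, and 1 to 6 without any other library. Relative to the sum of canonical members, these fits called 0 to 8 higher and 0 to 4 lower. On that scale, 3 higher and 1 lower were called without the trend and with the robust fit, 1 and 1 at a fold limit of 2, and 1 lower without the filter.

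Scaling to equal medians called 17 small subunit members. Centring on the pan-leukocyte genes called 14369 genes higher and 74 lower, with a median of 3.61 for all genes and 4.99 for members. This lifts all genes together. Under it 6 named genes that lay below 0 in the main fit turned to above 0, namely Rps9 (3.20), Rps27 (3.34), Rps4l (1.61), Fau (3.50), Eif4ebp2 (1.66) and Max (1.23). Medians of all genes were -0.16 with equal medians and 0.13 without mitochondrial genes, and members lay 1.34 and 1.40 above them. Members lay above all genes by 1.21 to 1.67 under all scalings, filters, fits and leave-one-out fits run. Scaling or centring a whole library moves members and all genes nearly alike, and dropping the trend or fitting robustly leaves the differences unchanged. Those settings could therefore hardly change this gap, which was 1.38 both in the main fit and with pan-leukocyte centring. The cause of these shifts was not tested.

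Same-numbered libraries of tumor and lung did not deviate together (correlations 0.0034 and 0.0833), and the labels do not say that the title numbers pair them, so no pairing was assumed. With 2 tumor libraries, whose deviations mirror each other, the check cannot show that pairing is absent. With the number as a replicate block, 65 members were called higher, where 3662 of all 16387 genes were called higher and 3449 lower. The median difference of members was then 1.56, and 0.010 for all genes. Relative to the sum of canonical members, the block fit called 3 members higher and 2 lower. For the 41 named members, 757 of 819 alternative values kept direction and call, 48 lost the call, 8 gained one, 3 reversed, and 3 of Rps27 changed sign without a call. Because TPM keeps no depth, the precision of low values such as Rpl5 is unknown.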
